A study of Mus musculus with 54 samples.

Results

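The mRNA levels of 10 liver macrophage genes were followed across the 4 DINP groups, out of 20143 gene symbols in the expression table. The genes were chosen by name. Clec4f, Cd5l, Vsig4, Marco and Timd4 mark the resident Kupffer cells, Adgre1 and Cd68 mark macrophages at large, and Trem2, Gpnmb and Spp1 mark lipid-associated macrophages, many of which descend from recruited monocytes. All mice were wild-type C57BL/6J males that were fed a high-fat diet from 8 weeks of age and received di-isononyl phthalate (DINP), a plasticizer, by mouth for 20 weeks. The control group (n = 14) received placebo pellets, and the exposed groups received a low (1.5 mg/kg bw/d, n = 13), middle (15 mg/kg bw/d, n = 13) or high dose of DINP (150 mg/kg bw/d, n = 14). No group was fed a regular diet, so every comparison is between mice on that diet. One library of 3′ mRNA tags was made per mouse from whole medial lobe.

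Kupffer cells are the macrophages that live in the liver sinusoids. They are seeded before birth, renew themselves locally, and clear bacteria, dying cells and old erythrocytes from portal blood. When fat accumulates in the liver, some of them are lost and monocytes enter and take up the free niche, and a share of the new cells turns on a programme for handling lipid and debris, with TREM2, a receptor for lipids and apoptotic cells, at its centre.

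The genes lie at single places in the genome (GRCm38, GENCODE M21 annotation). On the minus strand, Clec4f spans chr6:83644542-83656187, Vsig4 chrX:96247203-96293438, Marco chr1:120474538-120505024 and Cd68 chr11:69664213-69666153. On the plus strand, Cd5l spans chr3:87357881-87371073, Timd4 chr11:46810800-46844332, Adgre1 chr17:57358691-57483527, Trem2 chr17:48346401-48354147, Gpnmb chr6:49036546-49070929 and Spp1 chr5:104435118-104441050. Spp1 shares its strand with the overlapping gene model Gm42793, so tags of these models could have been split between them.

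The RefSeq promoter windows used here (GRCm38.p6) were matched for 9 of the 10 genes, without Adgre1. The 250 bases before the start are printed for the lipid-associated markers, for Cd68, which was high in the same mice, and for Vsig4, the resident marker with an unadjusted p under 0.05 between doses. Capitals mark a PU-box (GAGGAA, the core bound by the macrophage factor PU.1) or an AP-1 site (TGANTCA), searched on both strands.
Trem2, chr17:48346151-48346400, plus strand: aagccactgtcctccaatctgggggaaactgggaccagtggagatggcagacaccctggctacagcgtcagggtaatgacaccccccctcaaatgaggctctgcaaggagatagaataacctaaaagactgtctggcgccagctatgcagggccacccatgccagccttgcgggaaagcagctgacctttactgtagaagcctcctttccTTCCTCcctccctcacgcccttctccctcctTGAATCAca
Gpnmb, chr6:49036268-49036517, plus strand: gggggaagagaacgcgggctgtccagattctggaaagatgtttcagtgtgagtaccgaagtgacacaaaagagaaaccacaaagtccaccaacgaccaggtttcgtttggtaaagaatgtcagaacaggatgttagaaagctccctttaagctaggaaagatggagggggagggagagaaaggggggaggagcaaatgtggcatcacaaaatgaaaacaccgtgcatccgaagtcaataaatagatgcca
Spp1, chr5:104434861-104435110, plus strand: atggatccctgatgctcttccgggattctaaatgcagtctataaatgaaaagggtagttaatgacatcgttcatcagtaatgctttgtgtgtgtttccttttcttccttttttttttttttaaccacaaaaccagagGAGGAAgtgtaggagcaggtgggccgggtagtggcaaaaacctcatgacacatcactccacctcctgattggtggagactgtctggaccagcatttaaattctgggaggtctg
Cd68, chr11:69666171-69666420, minus strand: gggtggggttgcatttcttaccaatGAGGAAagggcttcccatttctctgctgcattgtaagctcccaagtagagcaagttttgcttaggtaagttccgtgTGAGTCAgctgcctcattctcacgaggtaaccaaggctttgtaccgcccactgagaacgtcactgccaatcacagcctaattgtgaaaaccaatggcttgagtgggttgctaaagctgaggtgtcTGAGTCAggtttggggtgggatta
Vsig4, chrX:96293439-96293688, minus strand: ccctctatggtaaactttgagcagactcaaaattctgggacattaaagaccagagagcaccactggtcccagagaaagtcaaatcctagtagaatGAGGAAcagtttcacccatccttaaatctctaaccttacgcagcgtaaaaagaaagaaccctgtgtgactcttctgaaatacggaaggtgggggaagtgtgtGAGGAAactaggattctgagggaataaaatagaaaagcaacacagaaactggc
A PU-box was found in 6 of the 9 windows (Cd5l, Vsig4, Marco, Cd68, Trem2 and Spp1), against 23.3% of 32851 mouse promoter windows of this length. Vsig4 held 2 of them, ending 150 and 48 bases before the start. AP-1 sites were found in Cd68 (2) and Trem2 (1), against 6.75% of all windows. The E-boxes CACGTG and CATGTG, the letters that MITF and TFE factors read in lysosomal genes, were present in 6.02% and 12.3% of all windows, and among the markers CATGTG was found once, in Timd4. Gpnmb and Clec4f held none of the 4 motifs. These matches describe the letters of the windows only.

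Levels are given as values derived from TPM (the share of a transcript among all transcripts of a library, per length), which the authors rounded to whole numbers and scaled between samples, so that each sample holds whole multiples of 1 step. A value of 0 is a level that rounded to 0. A whole-liver level falls when a cell type is rarer or when each cell holds less of the mRNA, and these cannot be told apart here. Levels were not compared between genes. In 6 of the 54 libraries the step was under 0.9 (0.764 to 0.896, against 0.931 to 1.11 in the other 48): control replicates 8 and 9, replicates 4, 9 and 13 at the low dose, and replicate 7 at the middle dose. The same 6 libraries had 13205 to 14221 genes above 0, against 12095 to 13166 in the others, and no library at the high dose was among them. These libraries also held the highest values of several markers, and the log2FC of each tested marker is therefore given with and without them. Whether the libraries or the livers differed was not tested.

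Of the 5 resident markers 0 were called at the low, middle and high dose against control, where 0.367%, 3.72% and 0.84% of the 11431 tested rows were called. A call needed an adjusted p under 0.05 and a log2FC, the difference of mean log2(value + 1), beyond 0.5 in limma. Clec4f, a lectin found on Kupffer cells and hardly anywhere else in the mouse, was the steadiest of the 10 genes, with a within-group SD of 0.26 on the log2 scale. Its lowest, median and highest values were 11.2, 18.4 and 23.7 in control, 11.1, 16.8 and 22.4 at the low dose, 13.9, 16.5 and 23.8 at the middle dose, and 12.3, 15.7 and 22.8 at the high dose. The 4 ranges lay nearly on top of each other, and at the high dose 11 of 14 mice lay under the median of control. The log2FC at the high dose was -0.11 (95% confidence interval -0.30 to 0.09, adjusted p = 0.679 by limma), an interval that holds neither a rise nor a fall of 0.5. At the low and the middle dose the log2FC was -0.04 (-0.24 to 0.16) and 0.01 (-0.19 to 0.21). From the low to the high dose the values were -0.01, 0.08 and -0.05 without the 6 libraries.

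Cd5l encodes a secreted protein (AIM) that macrophages release and that coats lipid and debris. It ranged from 22.4 to 96.3 in control (median 37.3), from 21.3 to 68.0 at the low dose (33.4), from 26.2 to 62.9 at the middle dose (36.2) and from 22.3 to 48.6 at the high dose (35.4). The medians were close and the upper ends were not: control replicates 8 and 9 reached 96.3 and 79.5. The 6 libraries with a small step held 42.1 to 96.3 of Cd5l (median 65.4), and the other 48 held 21.3 to 56.3 (34.9). The log2FC was -0.23, -0.10 and -0.15 at the 3 doses, and limma gave adjusted p of 0.585, 0.741 and 0.738. They were -0.21, 0.03 and 0.04 without the 6 libraries.

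Vsig4, the complement receptor CRIg, with which Kupffer cells catch opsonised bacteria, had the only resident shift with an unadjusted p under 0.05, between doses. Its lowest, median and highest values were 3.06, 4.62 and 6.88 in control, 2.68, 4.17 and 7.17 at the low dose, 1.77, 5.09 and 8.18 at the middle dose, and 3.88, 6.14 and 9.32 at the high dose. At the highest dose 12 of 14 mice were above the control median, although all ranges overlapped. The log2FC at the high dose was 0.25 against control (-0.02 to 0.51, adjusted p = 0.399), 0.35 against the low dose (0.08 to 0.62, adjusted p = 0.134) and 0.28 against the middle dose (0.01 to 0.55, adjusted p = 0.135), each by limma. Vsig4 was thus higher on average at the high dose without passing the adjusted threshold. These 3 values were 0.31, 0.35 and 0.19 without the 6 libraries, and limma gave adjusted p of 0.190, 0.0887 and 0.267.

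Marco and Timd4 take up particles and dying cells, Marco as a scavenger receptor and Timd4 as a receptor for phosphatidylserine on cells of embryonic descent. Marco ranged from 0.960 to 48.6 in control (median 2.93), from 0.894 to 19.6 at the low dose (3.05), from 0.994 to 15.2 at the middle dose (3.06) and from 0 to 6.41 at the high dose (3.01). The median hardly moved between the groups, while single mice stood far above it, with 48.6 in control replicate 9, 19.6 and 15.9 in replicates 8 and 6 at the low dose, and 15.2 in replicate 1 at the middle dose. Its log2FC was 0.26 (-0.43 to 0.95), 0.00 (-0.69 to 0.69) and -0.28 (-0.95 to 0.40), and without the 6 libraries it was 0.81, 0.38 and 0.05, none of them called. Timd4 was near the lower end of the scale, with medians of 1.01, 1.79, 1.99 and 1.52 and a highest value of 3.53 in any mouse, so that most of its differences were of 1 or 2 steps. Its log2FC was -0.05, 0.10 and 0.03 at the 3 doses, with adjusted p from 0.781 to 0.973 in limma, and 0.12, 0.25 and 0.07 without the 6 libraries.

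**Figure D1:**
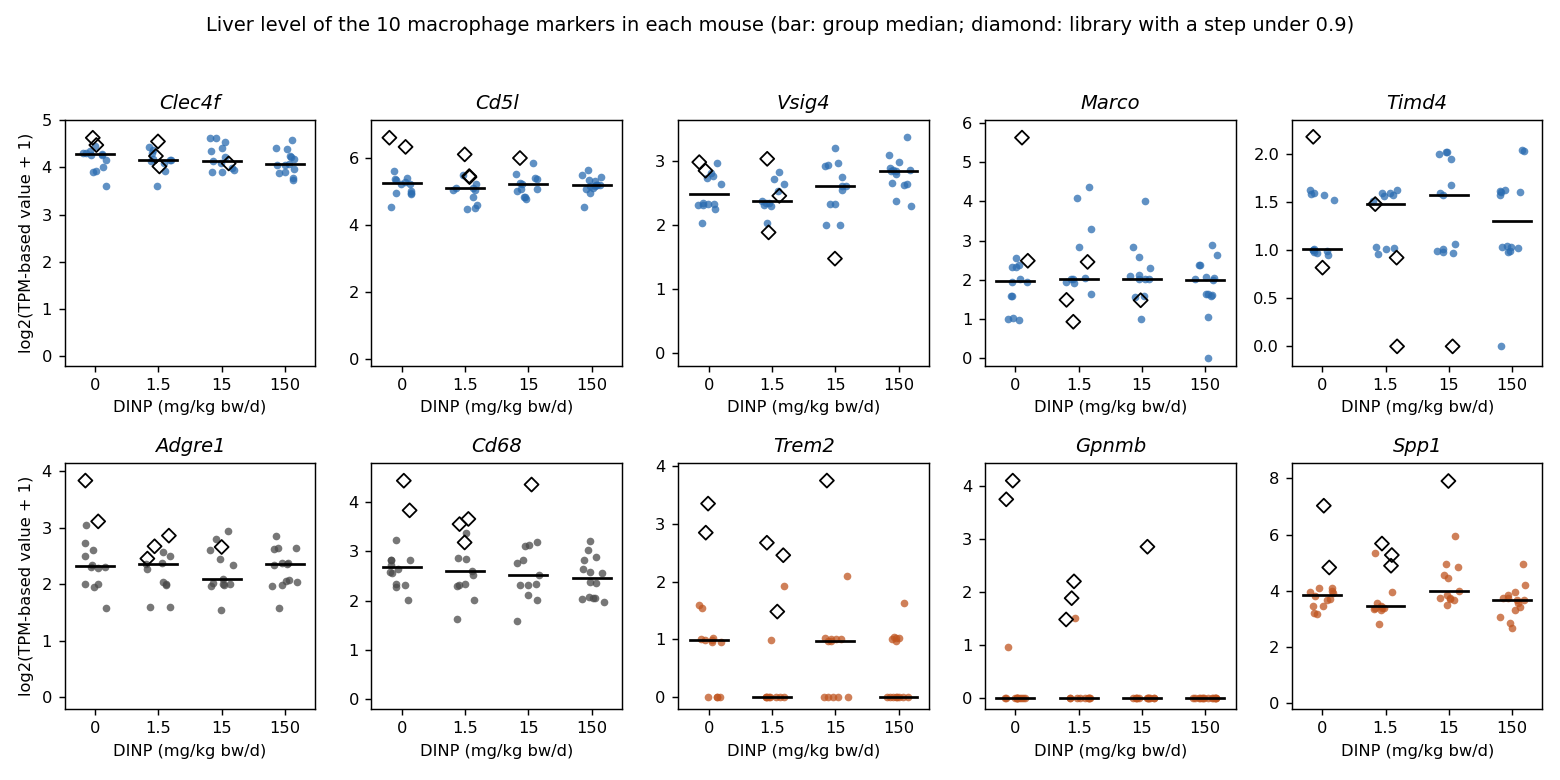
Level of each of the 10 markers in every mouse, as log2(TPM-based value + 1), by DINP dose (0 is control; blue resident, grey pan-macrophage, orange lipid-associated; bar, group median; open diamond, library with a step under 0.9). The group medians of Clec4f and Cd5l are close to level, Vsig4 is highest at the high dose, and the highest Cd68, Trem2 and Gpnmb points are open diamonds.

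The pan-macrophage markers were not called either. Adgre1 encodes F4/80, the adhesion receptor by which mouse macrophages are usually stained. It ranged from 2.01 to 13.2 in control (median 4.02), from 2.02 to 6.26 at the low dose (4.12), from 1.93 to 6.66 at the middle dose (3.29) and from 1.98 to 6.21 at the high dose (4.11). Its log2FC was -0.22, -0.21 and -0.20 at the 3 doses, each against the same control mice, and the adjusted p was 0.634, 0.439 and 0.640 in limma. It was -0.18, -0.08 and -0.03 without the 6 libraries, 2 of which were control. Cd68, a lysosomal glycoprotein of phagocytes, ranged from 3.01 to 20.6 in control (median 5.41), from 2.09 to 11.6 at the low dose (5.04), from 1.99 to 19.5 at the middle dose (4.76) and from 2.91 to 8.28 at the high dose (4.55). Its log2FC was -0.11, -0.15 and -0.34, the last with an interval from -0.78 to 0.10 and an adjusted p of 0.519 in limma. The 6 libraries with a small step held 8.07 to 20.6 of Cd68 and the other 48 held 1.99 to 9.31, and without them the log2FC was -0.11, -0.07 and -0.12.

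The highest values of the lipid-associated markers were held by a few mice, while Spp1 was above 0 in all 54. Trem2 was listed at 0 in 25 of the 54 livers. It was above 0 in 10 of 14 control mice, 5 of 13 at the low dose, 8 of 13 at the middle dose and 6 of 14 at the high dose, and its highest value was 9.17, 5.37, 12.4 and 2.09 in these groups. Values above 4 were found in control replicates 8 and 9 (9.17 and 6.18), in replicates 4 and 9 at the low dose (5.37 and 4.48) and in replicate 7 at the middle dose (12.4), and all 5 libraries had a step under 0.9. The log2FC was -0.36 (-1.07 to 0.35), -0.18 (-0.89 to 0.53) and -0.61 (-1.31 to 0.09) at the 3 doses, with adjusted p of 0.747, 0.795 and 0.440 in limma. It was -0.46, -0.08 and -0.27 without the 6 libraries, so that the values at the middle and the high dose moved by over 1.5 times.

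Gpnmb, a transmembrane glycoprotein of lipid-laden macrophages, was above 0 in 8 mice, and its mean of 0.842 kept it below the minimum of 1 used for testing. In control these were replicates 8, 9 and 6, with 16.1, 12.4 and 0.936. At the low dose they were replicates 9, 4, 10 and 13, with 3.58, 2.68, 1.86 and 1.79. At the middle dose replicate 7 alone held 6.20, and at the high dose all 14 mice were listed at 0. All 6 libraries with a small step had Gpnmb, against 2 of the other 48. These 2, replicate 10 at the low dose and control replicate 6, had steps of 0.931 and 0.936, not far above the cut of 0.9. The share of mice above 0 differed between the high and the low dose with p = 0.0407 in Fisher's exact test, which was 0.244 after adjustment over the 6 pairs of groups, and the permutation test of the mean log2 value gave 0.0812 (adjusted p = 0.487); both tests are two-sided and were chosen after the values had been seen. With all 20162 rows in the limma fit, the smallest adjusted p of Gpnmb was 0.549.

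Spp1 encodes osteopontin, a secreted matrix protein that lipid-associated macrophages make, as do cholangiocytes and activated stellate cells. Its lowest, median and highest values were 7.94, 13.5 and 129.2 in control, 6.09, 10.1 and 50.2 at the low dose, 10.2, 14.9 and 238.4 at the middle dose, and 5.31, 11.7 and 29.8 at the high dose. At the middle dose no mouse was below 10, and 7 of 13 were above the control median. At the high dose 10 of 14 were below it, and the ranges of all groups overlapped. The log2FC was -0.04 at the low dose, 0.50 at the middle dose (-0.21 to 1.21, adjusted p = 0.381) and -0.41 at the high dose (-1.11 to 0.29, adjusted p = 0.651) against control. Between the high and the middle dose it was -0.91 (-1.62 to -0.20), the largest difference of any tested marker in the 6 comparisons, with an unadjusted p of 0.0132 and an adjusted p of 0.0613 in limma. Without the 6 libraries it was -0.63 with an adjusted p of 0.0422, which passed the threshold. Without replicate 7 at the middle dose, the mouse with 238.4, the value was -0.63 and the adjusted p 0.160. Leaving out replicate 2, 3, 10, 12 or 13 at the middle dose or replicate 10 at the high dose also gave a call, with a lowest adjusted p of 0.0343. These mice held the lowest Spp1 values at the middle dose (10.2 to 12.3) and the highest at the high dose (29.8). Leaving out any of them widens the difference by construction, so these calls add no evidence. Against control the values without the 6 libraries were -0.12, 0.53 and -0.10 from the low to the high dose. Krt19, a keratin of cholangiocytes, had means of 0.968, 3.42, 0.673 and 1.33 in the 4 groups, and the summed level of 7 cholangiocyte markers had medians of 9.70, 10.1, 8.94 and 10.6. This sum was 9.84 to 27.5 (median 20.5) in the 6 libraries and 4.38 to 28.8 (9.97) in the others; the part of these cells in the Spp1 values was not tested.

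**Figure D2:**
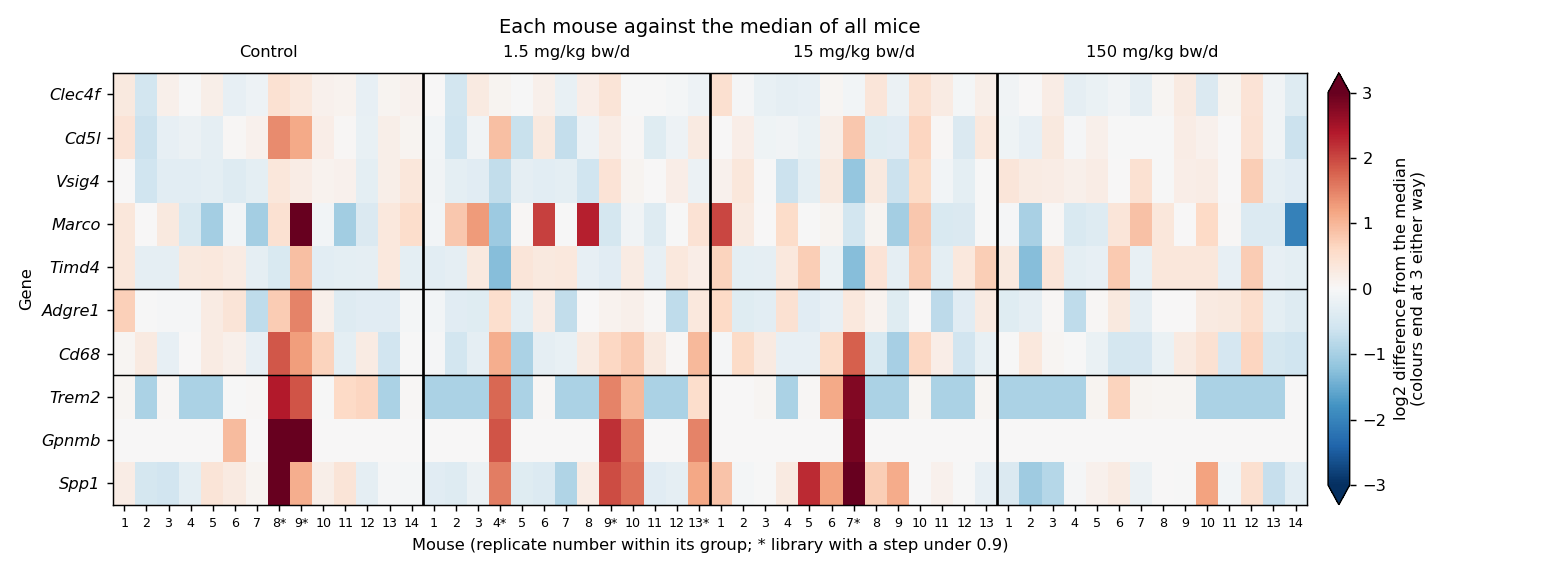
Log2 difference of each marker (rows) from its median over all 54 mice, for every mouse (columns, replicate number within its group); the star marks a library with a step under 0.9. Trem2, Gpnmb and Spp1 are red together in control 8 and 9, in 4, 9, 10 and 13 at the low dose and in 7 at the middle dose, and Gpnmb is at its median of 0 in all 14 mice at the high dose.

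Counted over the 9 tested markers, 0 were called at the low dose against control, where 0.367% of the 11431 tested rows were called, 0 at the middle dose (background 3.72%) and 0 at the high dose (background 0.84%). Between doses 0 were called as well, against 7.15% of all rows for the middle against the low dose, 1.64% for the high against the low dose and 6.73% for the high against the middle dose. None of the 9 had an adjusted p under 0.05 at any size of fold, and a Wilcoxon rank-sum test across all rows called 0 of them in each of the 6 comparisons. An unadjusted p under 0.05 was reached by 0 markers at each dose against control, where 12.3%, 27% and 14% of all rows reached it, by Vsig4 for the high against the low dose, and by Vsig4 and Spp1 for the high against the middle dose. Against control 1, 4 and 2 of the 9 were higher on average at the low, middle and high dose. The median log2FC of the 9 was -0.10, -0.03 and -0.20, beside 0.003, -0.001 and -0.008 over all tested rows. The 3 dose comparisons share the control mice, 2 of which held the highest Trem2 or Gpnmb values of their group.

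**Figure D3:**
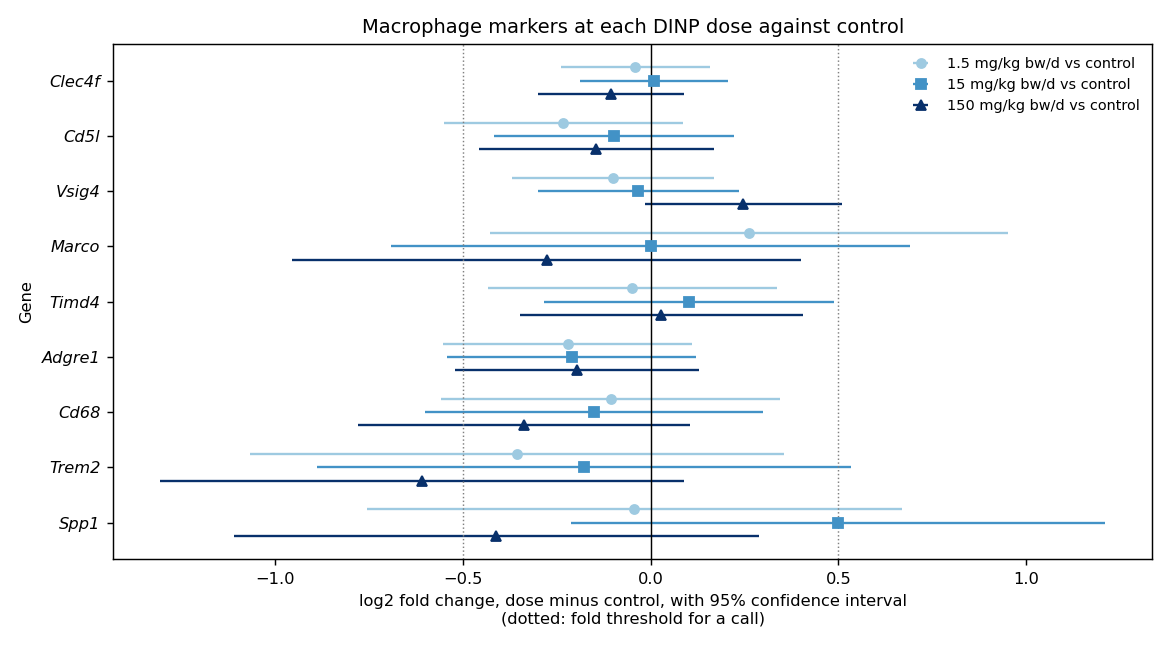
Log2FC of the 9 tested markers at 1.5 (circle), 15 (square) and 150 (triangle) mg/kg bw/d DINP against control, with 95% confidence intervals from limma; dotted lines mark the fold threshold of 0.5. Every interval crosses 0. Those of Clec4f and Timd4 stay within 0.5 of 0 at each dose, and those of Marco, Trem2 and Spp1 are the widest.

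The relation of resident to lipid-associated markers was described in each mouse as the mean log2 level of the 5 resident genes minus that of the 3 lipid-associated genes. This difference was 1.18 ± 0.83 (SD, n = 14) in control, 1.31 ± 1.00 (n = 13) at the low dose, 1.21 ± 1.12 (n = 13) at the middle dose and 1.68 ± 0.35 (n = 14) at the high dose. The lowest mouse was at -1.32, -0.64, -2.23 and 0.85 in these groups, and the medians were 1.46, 1.81, 1.64 and 1.68. Of the 3 lipid-associated genes, Gpnmb was at 0 in 46 of the 54 mice and Trem2 in 25. Without the 6 libraries the means were 1.45 ± 0.34 (n = 12), 1.75 ± 0.57 (n = 10), 1.49 ± 0.45 (n = 12) and 1.68 ± 0.35 (n = 14).

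Next, it was asked which markers rose and fell together from mouse to mouse within a group. Pearson correlations were computed on log2(value + 1) centred on the group means in 54 mice, with permutation p-values from 100000 within-group permutations, adjusted over the 45 pairs. No r is given for Gpnmb, which was 0 in 46 mice. Of the other 36 pairs, 15 passed with both Pearson's r and Spearman's rho. Trem2 and Spp1 had r = 0.73 (rho = 0.51, adjusted permutation p = 5e-05 and 0.0013), and both were related to Cd68 (r = 0.65 and 0.64, rho = 0.45 and 0.36) and to Adgre1 (r = 0.45 and 0.46, rho = 0.36 and 0.43). Of the 10 pairs of a lipid-associated with a resident marker, only the 2 with Cd5l passed, with r = 0.70 for Trem2 (rho = 0.60) and 0.61 for Spp1 (rho = 0.43). Timd4 had r of -0.26, -0.26 and -0.20 with Cd68, Trem2 and Spp1, none of which passed.

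These relations rested in part on the libraries with a small step. In the other 48 mice Trem2 and Spp1 had r = 0.33 (adjusted permutation p = 0.102), and 0 of the 15 pairs that include a lipid-associated marker passed. Leaving out the 2 mice farthest from the median of Trem2 gave r = 0.58. Pairs of resident markers passed in the 48 mice. There Cd5l had r = 0.58 with Clec4f and 0.56 with Vsig4 (adjusted permutation p = 9e-04 each), Clec4f and Vsig4 had r = 0.49 (adjusted permutation p = 0.011), and Cd5l and Marco had r = 0.42 (adjusted permutation p = 0.0256). Of the 8 pairs that passed there, 4 were between resident markers and 4 were of a resident with a pan-macrophage marker. The 6 libraries alone, from 3 groups, were too few for a correlation.

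**Figure D4:**
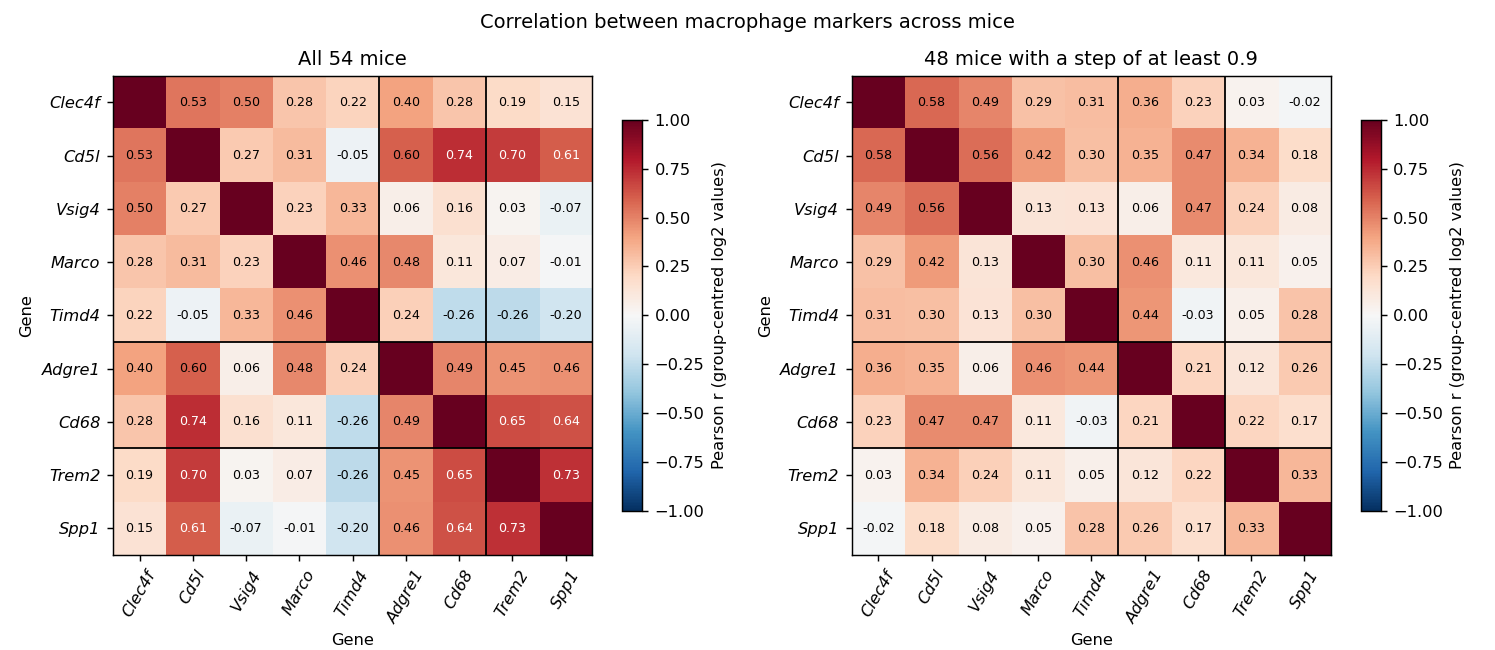
Pearson r between the 9 tested markers on group-centred log2 values, in all 54 mice (left) and in the 48 mice whose library had a step of at least 0.9 (right); black lines part resident, pan-macrophage and lipid-associated markers. The block of Cd68, Trem2 and Spp1 goes from 0.64 to 0.73 on the left to 0.17 to 0.33 on the right, while Clec4f and Cd5l stay at 0.53 and 0.58.

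Among all 11431 tested rows, the genes most like each marker across the 54 mice were, for Clec4f, C1qa (r = 0.57), Ccl6 (0.54) and C1qb (0.54), and for Cd5l, C1qc (0.90), Ctss (0.86) and Tyrobp (0.85). Cd68 was most like Ctss (0.81), Lgals3 (0.78) and Tyrobp (0.78), and Adgre1 was most like Clec4a1 (0.71), Cd44 (0.68) and Pou2f2 (0.67). Trem2 was most like Dcn (0.82), Anxa5 (0.80) and Mmp12 (0.80), and Spp1 most like Anxa5 (0.90), Col3a1 (0.89) and Klf6 (0.87). Dcn and Col3a1 are matrix genes of stellate cells and fibroblasts, and Mmp12 is a macrophage elastase. The best matches of the remaining resident markers were weaker, from 0.50 to 0.54 for Vsig4 (Tma16, Clec4f and Trub1), 0.54 to 0.61 for Marco (Pou2f2, Apol9b and Clec4a1) and 0.47 to 0.50 for Timd4 (Agpat2, Zc3h6 and Gstz1). All these r were ranked over the same 54 libraries, the 6 with a small step included, and are descriptions.

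Further genes of these cells were counted by list. Of 18 tested other Kupffer cell genes, 18 other lipid-associated macrophage genes, 20 general macrophage genes and 9 monocyte genes, 0 were called at the low and the high dose against control by limma. At the middle dose 3 of these 65 genes were called, all lower, which is 4.62% of them and close to the 3.72% of all tested rows. Csf1r, the receptor for the growth factor on which macrophages depend, ranged from 7.27 to 22.2 in control (median 12.2) and from 4.42 to 14.3 at the middle dose (7.73), a log2FC of -0.60 (-0.94 to -0.26, adjusted p = 0.0114). Spi1, which encodes PU.1, ranged from 3.97 to 22.9 (6.48) and from 1.10 to 7.98 (4.08), a log2FC of -0.71 (-1.13 to -0.28, adjusted p = 0.0174). Lipa, the lysosomal acid lipase, which hepatocytes also make, ranged from 37.4 to 138.7 (74.9) and from 19.9 to 88.0 (45.1), a log2FC of -0.71 (-1.10 to -0.32, adjusted p = 0.00845). All 3 ranges overlapped those of control. Without the 6 libraries the values were -0.52, -0.59 and -0.62, each still called. With a pseudocount of 5 Csf1r and Spi1 were at -0.43 and -0.41, under the fold of 0.5, and the Wilcoxon test called none of the 3 (adjusted p = 0.0565 for Csf1r, 0.153 for Spi1 and 0.0843 for Lipa). The call of Spi1 was also lost with only the groups compared (adjusted p = 0.0585) and with array weights (adjusted p = 0.0939).

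At the high dose most genes of the macrophage lists had a log2FC below 0, and none was called. Of 20 general macrophage genes 18 were lower, with a median log2FC of -0.20, as were 15 of 18 lipid-associated (-0.19), 9 of 9 monocyte (-0.28) and 11 of 18 Kupffer cell genes (-0.06), beside -0.01 over all tested rows. Without the 6 libraries, none of which was at the high dose, 11 of 20 general macrophage genes were lower (median -0.02), 9 of 18 lipid-associated (-0.01), 7 of 9 monocyte (-0.11) and 8 of 18 Kupffer cell genes (0.05), beside -0.003 over all tested rows. Most of these genes were lower at the low dose too. There 15 of 20 general macrophage (median -0.10), 16 of 18 lipid-associated (-0.12), 7 of 9 monocyte (-0.14) and 11 of 18 Kupffer cell genes (-0.01) were lower. The low-dose values without the 6 libraries were 15 of 20 (-0.12), 15 of 18 (-0.15), 7 of 9 (-0.18) and 9 of 18 (-0.03). In that fit 1 of the 18 lipid-associated genes was called at the low dose, and 70 of the 11431 tested rows. Lower at the middle dose were 13 of 20 general macrophage (median -0.09), 12 of 18 lipid-associated (-0.11), 6 of 9 monocyte (-0.03) and 14 of 18 Kupffer cell genes (-0.09). Without the 6 libraries these were 11 of 20 (-0.02), 11 of 18 (-0.12), 3 of 9 (0.06) and 12 of 18 (-0.06). The summed levels had medians of 284 at the high dose and 277 in control for the 22 general macrophage genes in the table, and 1089 and 1033 for the 20 lipid-associated ones. For the 15 monocyte genes they were 109 and 121, and for the 19 Kupffer cell genes 493 and 526. A sum follows its most abundant genes. The lipid-associated list includes Lipa, which hepatocytes also make, and Plin2 and Cd36, each called higher at the high dose than at another dose. Its sum is therefore not a level of these macrophages alone. Stellate cell and fibroblast markers had log2FC below 0 at the high dose in 9 of 9 tested genes (median -0.40, none called). Their median was -0.20 without the 6 libraries. The summed level of the 11 genes of this list was 397 to 541 in the 6 libraries with a small step against 234 to 396 in the others.

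**Figure D5:**
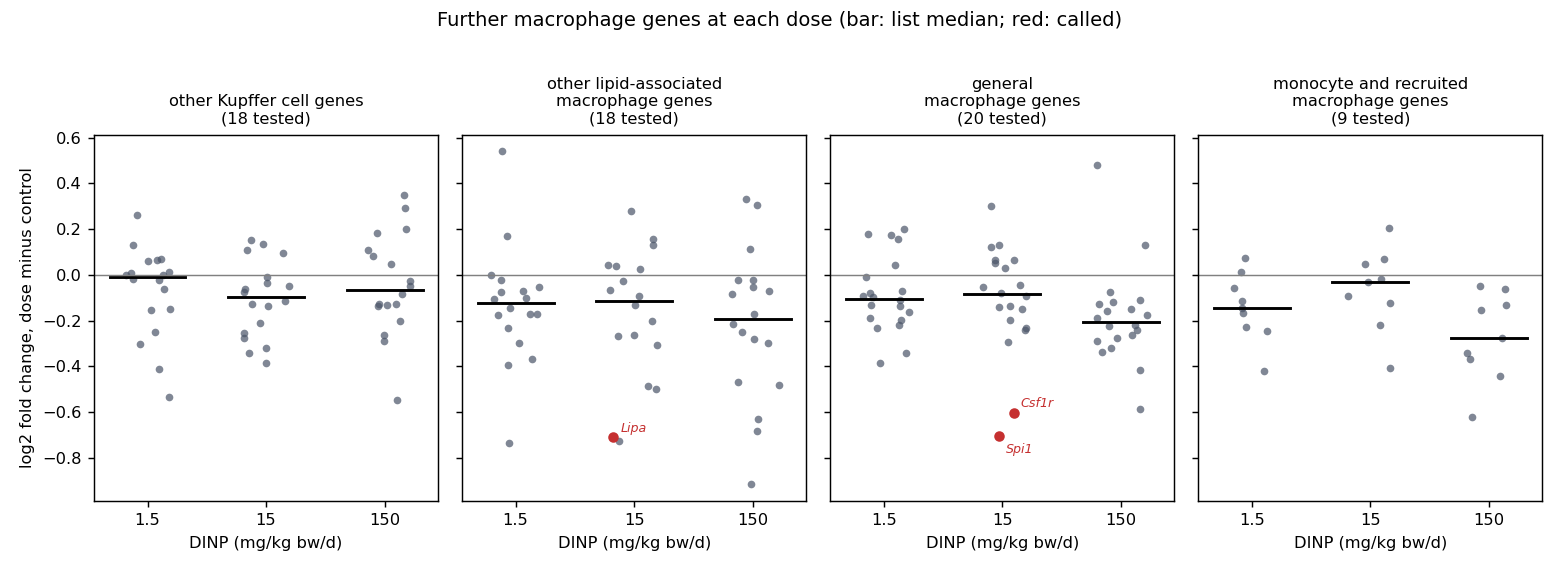
Log2FC against control of the tested genes of 4 further macrophage lists at each DINP dose (point, gene; bar, list median; red, called). Lipa, Csf1r and Spi1 are called at the middle dose (3.72% of all tested rows were), 0 genes are called at the low and the high dose (0.367% and 0.84% of all rows), and the 9 monocyte genes all lie below 0 at the high dose.

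Between doses, calls among the 18 other lipid-associated genes were 2 for the middle against the low dose (1 higher and 1 lower; 7.15% of all rows were called), 1 for the high against the low dose (higher; 1.64%) and 3 for the high against the middle dose (2 higher and 1 lower; 6.73%). Cd9, a tetraspanin of the lipid-associated list, was called higher at the middle than at the low dose (log2FC 0.52, adjusted p = 0.0459). It was called lower at the high than at the middle dose (-0.62, adjusted p = 0.0146, both by limma). Which liver cells held the Cd9 mRNA was not tested. Its median and highest values were 6.05 and 11.6 at the low dose, 8.16 and 30.1 at the middle dose, and 5.26 and 8.16 at the high dose. The call between the middle and the low dose was lost in 15 of 26 fits that left out 1 mouse, and also with the Wilcoxon test (adjusted p = 0.0943) and array weights (0.115). Between the high and the middle dose it was lost with array weights (adjusted p = 0.0686), and the value was -0.49, under the fold of 0.5, without the 6 libraries. Lipa went the other way, at -1.25 and 0.69 in the same comparisons, the second of which the Wilcoxon test did not call (adjusted p = 0.0623). Plin2, a coat protein of lipid droplets, was called at 0.57 and Apoe, a ligand of TREM2 made chiefly by hepatocytes, at 0.50 for the high against the middle dose, and Cd36, a fatty acid carrier, at 1.07 for the high against the low dose. Apoe was at 0.46 without the 6 libraries, under the fold of 0.5. The Wilcoxon test did not call Cd36 (adjusted p = 0.338), which was at 1.51 without the 6 libraries (adjusted p = 0.000219 by limma). Il34, the second ligand of Csf1r, was called lower at the middle than at the low dose (-0.63), and Cxcl1, a chemokine, lower at the high than at the middle dose (-0.73), a call lost with the Wilcoxon test (adjusted p = 0.136) and array weights (0.0771). The adaptor of TREM2, Tyrobp, and the tested genes of its signalling other than Apoe were not called in any comparison. Apoe itself was lower at the middle dose than in control with an adjusted p of 1.36e-05 but a log2FC of -0.47.

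Several lists, of macrophages and of other cells, were high in the small-step libraries. The dendritic list includes H2-Ab1, H2-Aa and H2-Eb1. Across the 54 mice H2-Eb1 and H2-Aa each had r = 0.80 with Cd5l, so its sum cannot be read as dendritic cells alone. Dendritic cell markers summed to 291 to 526 in the 6 libraries against 72.0 to 279 in the other 48. General macrophage genes summed to 409 to 830 against 192 to 408, and lipid-associated macrophage markers to 32.2 to 257 against 5.31 to 62.2. The last sum includes Spp1, which other cells also make. Resident Kupffer cell markers summed to 68.9 to 159 (median 85.9) in the 6 libraries against 39.8 to 97.2 (62.2). Other Kupffer cell genes summed to 485 to 827 (622) in the 6 libraries against 346 to 608 (503). Neutrophil markers summed to 13.4 to 39.0 (median 17.0) in them against 2.96 to 18.8 (9.51), adipocyte markers to 28.3 to 102 (71.6) against 3.13 to 102 (17.7), and lymphocyte markers to 63.6 to 125 (89.9) against 31.1 to 291 (62.0). Sinusoidal endothelial markers overlapped, at 152 to 190 and 153 to 206, and hepatocyte markers were at 26015 to 37660 against 34596 to 50611. Of single defining markers, Cd3e and Cd4 of T cells and Adipoq of adipocytes had a median of 0 in both sets. Ccr2, the chemokine receptor of classical monocytes, had a median of 3.11 in the 6 libraries and 1.01 in the 48. The part of these cells in the marker values was not tested.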

How the data were processed

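Livers (medial lobe) of 54 mice were sequenced by the authors with QuantSeq 3′ mRNA-Seq libraries, and per the labels and methods reads were processed with nf-core/rnaseq (STAR, RSEM, Salmon) on GRCm38. The deposited signal values are rounded TPM, which a size factor of each sample then scaled: 100% of values were whole multiples of the sample's step (tolerance 0.001). Sequencing depth is not kept, so no sampling error of single values was given, and no count test was used. From these values, log2(value + 1) was fitted in R 4.3.3 with limma 3.58.1 (trend), 4 groups in 1 fit (this scale understates changes of low genes), for the 11431 of 20162 rows with a mean of at least 1, with Benjamini-Hochberg adjustment. Correlations used Python 3.11.15 and SciPy 1.17.1. Samples were grouped by label. Mice were kept 1 to a cage, per the study's methods. Genes named were the markers, list genes called in any comparison and, per marker, the 3 most alike genes. Members and lists were chosen with earlier results of these data known. The scripts were tested on simulated data. Alternatives were other pseudocounts, filters, scalings, weights, a replicate block, a rank test, leaving out each mouse and, chosen after seeing the data, leaving out the 6 libraries with a step under 0.9.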

Additional observations from a re-analysis of the deposited data

How the results depend on the processing

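No marker was called under any alternative except Spp1 for 150 against 15 mg/kg bw/d. There 1 marker was called with a minimum mean of 5 and without the 6 libraries with a step under 0.9, and leaving out 1 mouse at a time gave 0 to 1. Over 51 log2FC and 1975 values, 1842 kept their direction and side of the threshold, 67 lost significance, 8 gained it and 58 changed sign, and no value that changed sign was over 0.37 in size in the reported fit. Signs changed with array weights for Timd4 (0.0027) and Spp1 (0.092) at 1.5 and Vsig4 (0.071) at 15 mg/kg bw/d. Without the 6 libraries they changed for Timd4 at 1.5 (0.12), Cd5l (0.027) and Vsig4 (0.12) at 15, Cd5l (0.042) and Marco (0.046) at 150, and Spp1 for 150 against 1.5 mg/kg bw/d (0.020). Quantile normalization changed Clec4f at 15 mg/kg bw/d (-0.00636). Rescaling to a sum of 1000000 changed Clec4f (-0.043) and Marco (-0.044) at 15 and Timd4 at 150 mg/kg bw/d (-0.023). A pseudocount of 5 changed Marco at 15 (-0.048) and one of 0.1 Timd4 at 150 mg/kg bw/d (-0.087). With the replicate block Clec4f was -0.00183 and Marco -0.054 at 15 mg/kg bw/d, the call of Cd9 for 15 against 1.5 mg/kg bw/d was lost (log2FC 0.52), and no other result changed its side of the adjusted p threshold. The numbers do not pair the mice: over 79 pairs of same-numbered mice the mean r of their deviations was -0.0025. Leaving out 1 mouse gave ranges across 0 for Cd68 (-0.186 to 0.0182), Clec4f (-0.0864 to 0.00675), Spp1 (-0.184 to 0.187) and Timd4 (-0.0843 to 0.0526) at 1.5, for Clec4f (-0.038 to 0.0401), Marco (-0.158 to 0.271) and Vsig4 (-0.0898 to 0.0542) at 15, and for Timd4 (-0.0287 to 0.129) at 150 mg/kg bw/d. Calls over all rows changed by over 1.5 times with a pseudocount of 5 (23, 190 and 48 at the 3 doses, against 42, 425 and 96, and 441, 86 and 384 between doses, against 817, 187 and 769), with the rank test (202 at 15 mg/kg bw/d, and 503, 120 and 484 between doses) and with array weights (70 at 1.5 and 218 at 15 mg/kg bw/d, 414 for 15 against 1.5 and 491 for 150 against 15). At 1.5 mg/kg bw/d they were 22 without a filter, 76 with only the groups compared, 27 with the replicate block and 70 without the 6 libraries. Leaving out 1 mouse ended the significance of Cd9 for 15 against 1.5 mg/kg bw/d in 15 of 26 fits, of Krt19 in 9 of 26, of Nkg7 in 7 of 27, of Cxcl1 in 6 of 27 and of Cd36 in 1 of 27, without replicate 5 at 1.5 mg/kg bw/d (0.91). The cause of these changes was not tested. Trem2, Gpnmb and Timd4 lie within a few steps of 0, which limits what can be seen of them.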

Other observations

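Of the markers of other cells, Pecam1 of endothelial cells was lower at 15 mg/kg bw/d than in control (log2FC -0.52, adjusted p = 0.000867 by limma). It was at -0.45, under the fold of 0.5, without the 6 libraries. Among 11 tested sinusoidal endothelial markers it was the only call, where 3.72% of all tested rows were called. Of the 11, 8 were lower (median log2FC -0.10). Between 150 and 15 mg/kg bw/d, Lum of fibroblasts and Prg4 of the peritoneal macrophage and mesothelial list had log2FC of -0.78 and -0.62. Both were called, Lum not by the rank test (adjusted p = 0.250). Each was the only call of its list, among 9 tested genes (8 lower) and 3 tested genes (3 lower). Of all tested rows 6.73% were called there. Which cells held the Prg4 mRNA was not tested. Between 15 and 1.5 mg/kg bw/d, Krt19 of cholangiocytes was called at -0.89 and Ttr of hepatocytes at 0.51, where 7.15% of all rows were called. Krt19 was the only call among 4 tested cholangiocyte markers (3 lower). Ttr was the only call among 9 tested hepatocyte markers, of which 4 were higher and 5 lower (median log2FC -0.02). Nkg7 of cytotoxic lymphocytes was called at -1.12 between 150 and 1.5 mg/kg bw/d, where 1.64% of all rows were called. It was the only call among 5 tested lymphocyte markers (4 lower). The call of Krt19 was lost in 6 of 11 other settings, with an adjusted p of up to 0.247 (-0.96 and 0.0533 without the 6 libraries), and that of Nkg7 in 3 of 11 (-0.98 and 0.0610 without the 6 libraries). Ttr was at 0.24 with quantile normalization (adjusted p = 0.104).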
